A study of Danio rerio with 9 samples.

Results

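The zebrafish eye between 3 and 5 days post fertilization (dpf) was compared here through its bright genes, those with a signal well above the background of the array. Of the 4516 bright probe sets, 205 were higher and 184 were lower in 5 dpf eyes than in 3 dpf eyes by at least 2-fold at an adjusted p under 0.05. The genes that were lower at 5 dpf included those of cartilage matrix, skeletal muscle, protein folding in the endoplasmic reticulum and the proteasome. The genes that were higher at 5 dpf included those of photoreceptors, the circadian clock and the early response to stimulation. Of all 389 calls, 109 remained whichever array was left out. With replicate 3 at 3 dpf left out, no listed gene of phototransduction or of the clock was called. All 74 ribosomal protein genes differed by less than 2-fold, and for 72 of them the whole 95% interval lay inside that limit.

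The samples were wild type whole eyes, dissected from larvae at 5 dpf (3 arrays), 4 dpf (3 arrays) and 3 dpf (3 arrays), with no treatment given. For the 5 and 3 dpf samples, the study's methods state a two-cycle amplification and labelling of total RNA. The array was the Affymetrix Zebrafish Genome Array, which measures a gene by one or more probe sets. The study's methods call the 3 arrays at 5 dpf and the 3 at 3 dpf biological replicates, whereas the labels give only a replicate number. The number of eyes in a sample and the hour of dissection are not given in the sources used here.

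Members were selected on their mean log2 signal over the 6 arrays of 5 and 3 dpf eyes. A probe set was called bright when this mean was at least 7 and the platform annotation gave it 1 gene symbol. This rule kept 4516 of 15617 probe sets on the array, which stand for 4171 of 8793 genes with such a symbol. Another 6279 probe sets with 1 symbol had a mean under 7, and of the bright ones 52 with several symbols and 1322 without a symbol were left out. The means of the members reached 15.72, with a median of 8.73. The level of a member was used to choose it and is given as a description only. The 5 members nearest to the limit were chek1, ptprfb, si:ch211-121a2.2, ccdc88c and celf4, and the 5 nearest below it were nup133, chkb, fgfr3, smg8 and si:ch211-157b11.12. At 5 dpf chek1 was at 6.45, 6.50 and 6.86, against 7.15, 7.73 and 7.32 at 3 dpf. At 5 dpf nup133 was at 6.06, 7.02 and 6.53, against 6.84, 7.74 and 7.78 at 3 dpf.

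During these 2 days photoreceptors of the zebrafish extend outer segments, retinal synapses mature and the larva begins to respond to what it sees, while new neurons are mainly added at the ciliary margin. The eye is surrounded by young cartilage, by extraocular muscles and by surface epithelium, which forms the cornea. A whole eye holds all of these layers as well as lens, pigment epithelium and blood vessels. In such bulk samples, fewer cells of a type and less RNA per cell cannot be told apart.

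Markers of the eye were present. Of 17 lens, cone, rod, Muller glia, neuron and pigment epithelium markers, 10 were measured and all 10 were bright. Their group means ran between 7.21, for the lens crystallin gene cryaa at 3 dpf, and 14.95, for the lens crystallin gene crybb1 at 5 dpf. The median signal of an array lay between 5.70 and 5.79, and that of the members between 8.68 and 8.78 at 5 and 3 dpf. Over the members, arrays of one age correlated at 0.936 to 0.984 and arrays of different ages at 0.845 to 0.907. Of the 6 arrays, 3 dpf replicate 1 stood closest to the other age. Among the 205 members called higher at 5 dpf it was the highest of the 3 dpf arrays in 160, and among the 184 called lower at 5 dpf it was the lowest of them in 104. Its part in the results was not tested beyond the fits without it that are given below.

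All differences are log2 values of 3 dpf minus 5 dpf, so that a negative one stands for a gene that was higher at 5 dpf. They were tested with limma over all 15502 probe sets other than controls, and a probe set was called at a Benjamini-Hochberg adjusted p under 0.05 together with a fold of at least 2. By this rule 389 members were called, or 8.61% of them, against 5.36% of all probe sets tested. Those higher at 5 dpf made up 4.54% of members and 2.97% of all probe sets. Those lower at 5 dpf made up 4.07% of members and 2.39% of all. Counted once per gene, 187 genes were higher and 168 were lower at 5 dpf, or 4.48% and 4.03% of all 4171 bright genes. These are the shares to set beside the counts of the lists below. A further 480 members had an adjusted p under 0.05 with a difference below 2-fold. The median difference of the members was 0.08, and 5% of them lay below −1.14 and 5% above 1.05. For 2718 members, or 60.2%, the 95% interval of the difference lay wholly within 2-fold, which was also true of 72.0% of all probe sets tested. The median standard deviation of a member over 3 arrays was 0.271 at 5 dpf and 0.174 at 3 dpf. Where the ages of a called gene are said not to overlap, this is a description and no added support.

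A mean of at least 7 over both ages did not keep every member bright at both. Of the 4516 members, 4208 were at 7 or more at both ages, 168 were under 7 at 5 dpf and 140 were under 7 at 3 dpf. Of the 4208, 156 (3.71%) were higher and 142 (3.37%) lower at 5 dpf, together 7.08% of them. Of the 308 others, 91 were called. These had to differ in order to be under 7 at one age, so that their share, 29.5%, has no meaning as a result. Only 2 members, matn1 at 5 dpf and ambp at 3 dpf, had a group mean under 5. The share called was highest at middle levels. It was 7.93% for means between 7 and 8, 10.4% between 9 and 10 and between 10 and 11, and 2.19% among the 137 members at 13 or more.

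**Figure D1:**
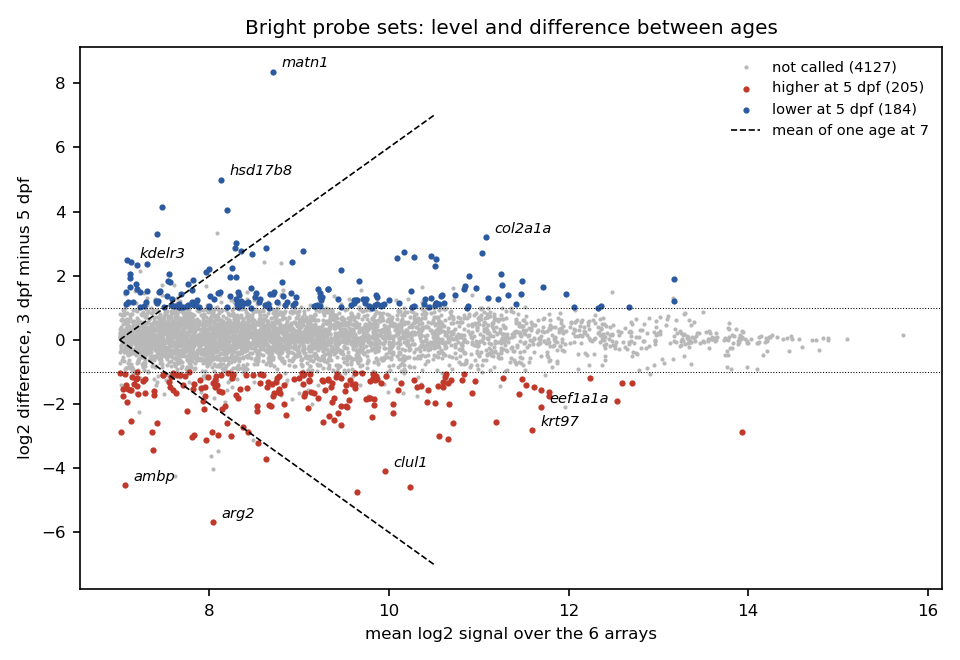
Difference between ages (3 dpf minus 5 dpf, log2) against the mean log2 signal over the 6 arrays for the 4516 bright probe sets, with the 205 called higher at 5 dpf and the 184 called lower at 5 dpf in colour. Dotted lines mark 2-fold, and points outside the dashed lines were under 7 at one age, among them matn1, hsd17b8, arg2 and ambp.

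Calls were few among the brightest genes, but not absent. Of the 137 members at 13 or more, 1 was higher and 2 were lower at 5 dpf. Together these were 2.19%, against 8.61% of all members. The 8 brightest were the mitochondrial COX1, the translation elongation factor gene eef1a1l1, the ultraviolet cone opsin gene opn1sw1, crybb1, the ribosomal genes rack1, rps2 and rpl3, and the brain-type creatine kinase gene ckbb, and none was called. For eef1a1l1 the signals averaged 15.08 ± 0.06 at 5 dpf and 15.11 ± 0.06 at 3 dpf (SD, n = 3 each), and its 95% interval lay between −0.13 and 0.19. For opn1sw1 they were 14.77, 14.83 and 14.80 at 5 dpf, against 14.72, 14.99 and 14.89 at 3 dpf, and the interval lay between −0.15 and 0.27. In both genes the ages overlapped. All 74 cytosolic ribosomal protein genes measured were bright. None was called, the differences ran between −0.37 and 0.42, and their median was −0.01. Of 81 bright genes of oxidative phosphorylation none was called either, with a median of 0.20 and the 95% interval within 2-fold for 58. Their differences ran wider than those of the ribosomal genes, between −0.95 and 1.68, and 61 were positive and 20 negative. The lack of calls therefore does not show that the genes of oxidative phosphorylation stayed the same. The median over the 4171 bright genes was 0.08.

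Genes of cartilage, bone and connective tissue matrix held many of the calls. Of the 70 measured genes on this list 35 were bright, 20 of these were lower at 5 dpf, none was higher, and the median difference was 1.39. Among the 28 that were at 7 or more at both ages 14 were called, and the other 6 calls were of genes that became members through their 3 dpf level. Over all bright genes 4.03% were lower at 5 dpf. The cartilage matrix gene matn1 (matrilin 1) was at 4.32, 4.68 and 4.59 at 5 dpf, against 12.49, 13.02 and 13.17 at 3 dpf. Its difference of 8.36 (95% interval 7.84 to 8.88, adjusted p = 0.000471) was the largest of the members, and its 5 dpf signals lay below the brightness limit on all 3 arrays. The type II collagen gene col2a1a, the main collagen chain of cartilage, was at 9.08, 9.82 and 9.54 at 5 dpf, against 12.37, 12.65 and 13.04 at 3 dpf (difference 3.21, adjusted p = 0.00509). It was bright at both ages with a wide gap between them. The type IX collagen gene col9a2 was at 9.06, 9.09 and 8.79 at 5 dpf, against 11.66, 11.40 and 11.64 at 3 dpf (difference 2.58, adjusted p = 0.00182). Its companion chain col9a3 was lower by a difference of 2.74, and col11a1a, of type XI collagen, by one of 2.29.

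Several other genes of the list were called lower as well. The gene postnb (periostin, a matrix protein of connective tissue) was at 10.31, 10.17 and 10.20 at 5 dpf, against 12.21, 12.06 and 12.54 at 3 dpf (difference 2.05, adjusted p = 0.00393). The type I collagen genes col1a1a and col1a2 had differences of 1.71 and 1.62, and the type V chain col5a2a one of 2.36. The collagen-modifying enzymes plod1a and plod3, which hydroxylate lysines, were lower by 2.04 and 1.87. The cartilage glycoprotein gene cnmd (chondromodulin) was at 8.33, 7.66 and 6.99 at 5 dpf, against 10.71, 9.89 and 10.66 at 3 dpf. Not every matrix gene was called. The basement membrane collagen gene col15a1b had a difference of −0.86, and sparc, a matrix protein that binds collagen, one of 0.57. The list gave 20 calls with all arrays. It gave 13 with 3 dpf replicate 3 left out, and 14 to 18 with any other array left out. The linear signals of all 70 measured genes summed to 22927 to 25347 on the arrays at 5 dpf, against 69072 to 85348 at 3 dpf.

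Skeletal muscle genes were lower at 5 dpf in 8 of 20 bright genes and higher in none, with a median difference of 2.27. That is 40%, against 4.03% of all bright genes. Of the 14 that were at 7 or more at both ages 4 were called, and the other 4 calls, acta1a, actc1a, tnnt3b and tpm1, were of genes that became members through their 3 dpf level. The skeletal actin gene acta1a was at 5.63, 5.09 and 5.50 at 5 dpf, against 9.36, 9.63 and 9.63 at 3 dpf (difference 4.13, 95% interval 3.72 to 4.55, adjusted p = 0.00133). The cardiac-type actin gene actc1a was at 6.03, 7.02 and 5.50 at 5 dpf, against 10.62, 10.02 and 10.01 at 3 dpf (difference 4.03, adjusted p = 0.00872). Actin genes are close in sequence, and probes that read more than one of them were not tested for. The fast myosin light chain gene mylpfa was at 7.59, 7.23 and 6.61 at 5 dpf, against 9.63, 9.71 and 10.06 at 3 dpf. In these 3 genes the ages did not overlap and each remained called without any one array. The muscle creatine kinase gene ckmb was at 8.47, 7.91 and 6.73 at 5 dpf, against 10.32, 9.81 and 10.25 at 3 dpf (difference 2.42, adjusted p = 0.0332). Leaving out 5 dpf replicate 2, or any single array at 3 dpf, ended its call. The troponin gene tnnc2.2 had a difference of 3.34 without a call, and mb (myoglobin), one of 0.68. With single arrays left out the count of 8 became 4, 3 and 3 for replicates 1, 2 and 3 at 3 dpf, and 5 for replicate 2 at 5 dpf. Over all 72 measured muscle genes the linear signals summed to 14458 to 16162 at 5 dpf, against 29205 to 33396 at 3 dpf.

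The part of tissue around the eye in these differences was not tested. Of 41 measured transcription factor genes of the pharyngeal arches and the craniofacial mesenchyme, 9 were bright. None of the 9 was called, 8 had a positive and 1 a negative difference, and their median was 0.55. Over all bright genes 4.48% were called higher and 4.03% lower. With 9 genes the lack of calls does not show that these genes stayed the same. Of 39 bright genes of epidermis and cornea, 4 were lower and 1 was higher at 5 dpf, with a median of 0.03, and the summed signal of the list overlapped between the ages (70662 to 81498 at 5 dpf, against 76534 to 78364 at 3 dpf). The shares of this list called lower and higher were 10.3% and 2.56%, against 4.03% and 4.48% of all bright genes. Within this list the directions were mixed. The keratin gene krt97 was at 12.80, 13.31 and 12.89 at 5 dpf, against 10.41, 10.34 and 9.83 at 3 dpf (difference −2.81, adjusted p = 0.0049). The epithelial adhesion gene epcam was at 8.96, 8.54 and 7.99 at 5 dpf, against 10.29, 9.77 and 9.82 at 3 dpf (difference 1.47, adjusted p = 0.0338), and was called in 1 of the 6 fits with an array left out. A further keratin gene, krt1-19e, was outside the list, at 11.85, 12.45 and 12.35 at 5 dpf, against 13.93, 14.01 and 14.42 at 3 dpf (difference 1.90, adjusted p = 0.00986). The ages did not overlap in any of these 3 genes. With an array left out, between 1 and 5 genes of the list were called lower. The fewest, 1, were called when replicate 2 or replicate 3 at 3 dpf was left out, and 2 when replicate 1 was.

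**Figure D2:**
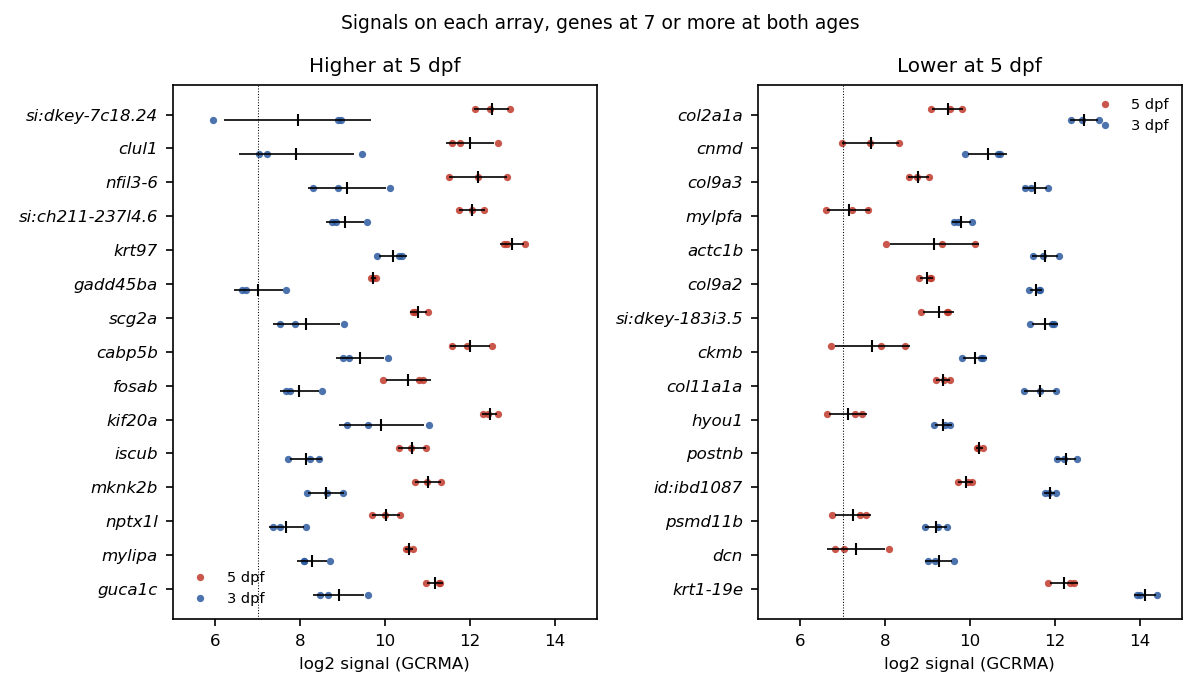
Log2 signal on each array at 5 dpf and 3 dpf for the 15 genes with the largest called difference in each direction among those at 7 or more at both ages. Bars are the mean and SD of 3 arrays, and the dotted line is the brightness limit of 7. For clul1 and kif20a, on the left, 1 array at 3 dpf lies above the other arrays of its age.

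Genes of the endoplasmic reticulum, where secreted proteins such as collagens are folded and exported, were lower at 5 dpf in 20 of 62 bright genes and higher in none, with a median of 0.86. The share lower was 32.3%, against 4.03% of all bright genes. Among the 55 at 7 or more at both ages 15 were called, and the other 5, kdelr3 and pdia6 among them, became members through their 3 dpf level. A positive difference was found in 57 of the 62, and over all 4516 bright probe sets in 184 called and 2357 uncalled ones. The gene kdelr3, a receptor that returns chaperones to the endoplasmic reticulum, averaged 5.92 ± 0.14 at 5 dpf and 8.33 ± 0.11 at 3 dpf (SD, n = 3 each, difference 2.42, 95% interval 2.16 to 2.68, adjusted p = 0.00142). The chaperone gene hyou1 was at 7.30, 7.47 and 6.62 at 5 dpf, against 9.16, 9.42 and 9.54 at 3 dpf (difference 2.24, adjusted p = 0.00969). The protein disulfide isomerase genes pdia6, pdia4, txndc5 and pdia3 were lower by 1.75, 1.58, 1.47 and 1.37. The lectin chaperone genes calr and calr3a, which encode calreticulins, were lower by 1.41 and 1.39. The prolyl isomerase gene fkbp9, kept on the matrix list, averaged 6.79 ± 0.21 at 5 dpf and 9.80 ± 0.28 at 3 dpf (SD, n = 3 each). The stress-induced chaperone genes hspa5 and hsp90b1 had differences of 1.18 and 1.56 without a call. The transcription factor genes xbp1 and atf4a, of the unfolded protein response, stood at 0.39 and −0.09. The coat protein genes copa, copb1 and copg2, of vesicles that return to the endoplasmic reticulum, stood at 0.37, 0.51 and 0.45. Leaving out replicate 2 at 3 dpf gave 9 calls in place of 20, and leaving out replicate 3 at 3 dpf gave 7.

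The proteasome, which degrades ubiquitinated proteins, and the cytosolic chaperones shared one list of 66 bright genes. Of these, 7 were lower and none higher at 5 dpf, with a median of 0.63, and all 7 encode proteasome subunits. The share lower was 10.6%, against 4.03% of all bright genes. The lid subunit gene psmd11b was at 7.42, 7.54 and 6.76 at 5 dpf, against 8.93, 9.46 and 9.24 at 3 dpf (difference 1.97, adjusted p = 0.0132). The core subunit gene psma6a was at 9.05, 9.33 and 9.10 at 5 dpf, against 10.26, 10.36 and 10.31 at 3 dpf (difference 1.15, adjusted p = 0.00543). The genes psmd4b, psmd13, psmc6, psmd8 and psma4 were lower by 1.28, 1.05, 1.05, 1.02 and 1.00. The chaperone genes hsp90ab1, hspa8 and cct4 lay between −0.01 and 0.11. Of 3 dpf arrays, leaving out replicate 2 gave 4 calls and replicate 3 gave 3 calls in place of 7. Leaving out replicate 1 at 5 dpf gave 4.

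Genes of translation and of RNA binding were called in both directions. Of 98 bright genes, 10 were lower and 4 were higher at 5 dpf, with a median of 0.40. As shares these were 10.2% and 4.08%, against 4.03% and 4.48% of all bright genes. The 4 that were higher were eef1a1b, eef1a1a, eef2l2 and eif4a2, all of translation. The elongation factor gene eef1a1a was at 13.07, 12.71 and 12.46 at 5 dpf, against 11.16, 10.41 and 10.35 at 3 dpf (difference −2.11, adjusted p = 0.0138). The closely related eef1a1b was at 9.72, 9.54 and 9.31 at 5 dpf, against 7.21, 5.91 and 6.07 at 3 dpf (difference −3.12, adjusted p = 0.011). The third copy, eef1a1l1, was the second brightest of all genes and differed by 0.03. Those lower at 5 dpf included genes of RNA binding as well as the translation factor genes eif4a1a and eif4g2a. The genes hnrnpabb, hnrnpub and hnrnph1l, which encode proteins that package new transcripts, were lower at 5 dpf by 1.42, 1.18 and 1.16, and srsf1a, a splicing regulator, by 1.12. Without 3 dpf replicate 3 only 3 genes were called lower and none higher. The 4 calls higher at 5 dpf became 1 with replicate 2 at 3 dpf left out, and 2 with either replicate 1 or replicate 2 at 5 dpf left out.

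**Figure D3:**
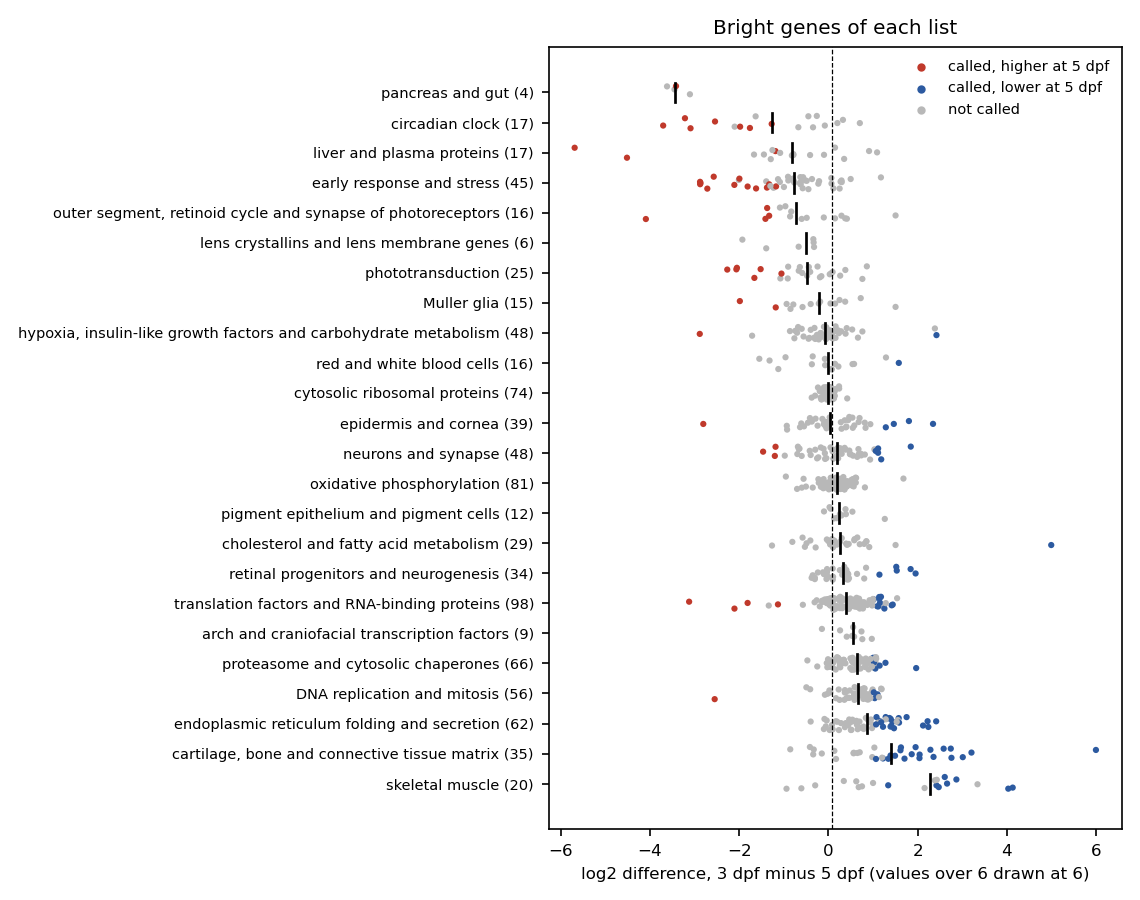
Difference between ages (3 dpf minus 5 dpf, log2) for the bright genes of 24 lists, with their number in brackets, the median of each list as a black bar and the median of all bright genes, 0.08, as a dashed line. Called genes are coloured by direction, matn1 at 8.36 is drawn at the edge, and the muscle and matrix lists lie farthest to the right.

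Genes of phototransduction, the cascade by which light closes channels in photoreceptors, were higher at 5 dpf in 6 of 25 bright genes and lower in none, with a median of −0.48. Over all bright genes 4.48% were higher at 5 dpf. The gene guca1c, an activator of the guanylate cyclase that restores cyclic GMP, was at 10.97, 11.29 and 11.29 at 5 dpf, against 9.60, 8.66 and 8.48 at 3 dpf (difference −2.27, adjusted p = 0.0155). The related guca1b was at 9.44, 9.84 and 9.37 at 5 dpf, against 7.88, 7.17 and 7.45 at 3 dpf (difference −2.05, adjusted p = 0.00947). The cyclase gene itself, gucy2f, had a difference of −1.52. The rod phosphodiesterase gene pde6a averaged 9.90 ± 0.53 at 5 dpf and 8.24 ± 0.26 at 3 dpf (SD, n = 3 each, difference −1.66, adjusted p = 0.0277). The ages did not overlap in any of these. The 2 cone opsin genes opn1sw1 and opn1sw2 and the cone transducin gene gnat2 stood at 0.06, 0.26 and −0.16, all 3 without a call. The green cone opsin genes lay on opposite sides, opn1mw2 at −1.05 with a call and opn1mw1 at 0.86 without one, and these copies are close in sequence. Leaving out replicate 3 at 3 dpf gave 0 calls in place of 6, leaving out replicate 2 at that age gave 2, and leaving out replicate 2 at 5 dpf gave 1.

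Of 16 bright genes of outer segments, the retinoid cycle and the photoreceptor synapse, 4 were higher and none lower at 5 dpf, with a median of −0.72. The share higher was 25%, against 4.48% of all bright genes. The retinol receptor gene stra6 was at 12.15, 12.37 and 12.16 at 5 dpf, against 10.76, 10.77 and 10.91 at 3 dpf (difference −1.41, 95% interval −1.64 to −1.19, adjusted p = 0.00351), and remained called without any one array. The retinoid carrier gene rbp3, of the space between photoreceptors and pigment epithelium, was at 13.17, 13.27 and 13.34 at 5 dpf, against 12.17, 11.52 and 12.09 at 3 dpf (difference −1.33, adjusted p = 0.0162). The clusterin-like gene clul1 was at 12.66, 11.58 and 11.78 at 5 dpf, against 9.47, 7.03 and 7.23 at 3 dpf (difference −4.09, adjusted p = 0.0277). It differed more than any other gene of the list, but with 1 array at 3 dpf far above the other 2 it was called in only 1 of the 6 fits with an array left out. The isomerase gene rpe65a, of the retinoid cycle, had a difference of −0.83, and the disc rim gene prph2a one of −0.49. Not all genes of the list lay on this side. Of the 16, 11 had a negative and 5 a positive difference, and the largest positive one was 1.51, without a call. The 4 calls became 1 when replicate 3 at 3 dpf was left out. They became 2 when replicate 2 of either age, or replicate 3 at 5 dpf, was left out.

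Circadian clock genes were higher at 5 dpf in 7 of 17 bright genes and lower in none, with a median of −1.27. That is 41.2%, against 4.48% of all bright genes. Of the 13 at 7 or more at both ages 4 were called, and the other 3 calls, bhlhe41, cry2 and cry-dash, were of genes that became members through their 5 dpf level. The cryptochrome gene cry2 was at 9.99, 10.60 and 9.86 at 5 dpf, against 7.93, 6.49 and 6.38 at 3 dpf (difference −3.22, adjusted p = 0.0178). The repressor gene bhlhe41 was at 10.11, 11.16 and 10.18 at 5 dpf, against 7.99, 5.93 and 6.42 at 3 dpf (difference −3.71, adjusted p = 0.0231). The output repressor gene nfil3-6 was at 12.20, 12.88 and 11.51 at 5 dpf, against 10.11, 8.32 and 8.89 at 3 dpf (difference −3.09, adjusted p = 0.0304). In all 3 genes the ages did not overlap, and 3 dpf replicate 1 lay above the other arrays of its age. The photolyase-related cry-dash, the transcription factor gene tefa, the light-induced per2 and the nuclear receptor gene nr1d2b had differences of −2.54, −1.98, −1.76 and −1.27. The activator genes bmal1a and bmal1b stood at 0.20 and −0.45 without a call. No clock gene was called with replicate 2 of either age or replicate 3 at 3 dpf left out. With replicate 1 or replicate 3 at 5 dpf left out, 3 were. The hour of dissection, which sets the level of clock genes, and age cannot be told apart here.

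Early response genes, which cells switch on within minutes of a stimulus, together with stress genes were higher at 5 dpf in 12 of 45 bright genes and lower in none, with a median of −0.78. The share higher was 26.7%, against 4.48% of all bright genes. Of the 40 at 7 or more at both ages 9 were called, and the other 3 calls, npas4a, dusp5 and socs3a, were of genes that became members through their 5 dpf level. The neuronal activity-induced gene npas4a was at 8.55, 8.35 and 8.45 at 5 dpf, against 5.99, 5.40 and 5.35 at 3 dpf (difference −2.87, 95% interval −3.34 to −2.39, adjusted p = 0.00384). The phosphatase gene dusp5, which acts on a growth factor kinase, was at 8.97, 9.91 and 9.52 at 5 dpf, against 6.66, 6.48 and 6.61 at 3 dpf (difference −2.88, adjusted p = 0.00601). The growth arrest gene gadd45ba was at 9.78, 9.73 and 9.68 at 5 dpf, against 7.68, 6.64 and 6.73 at 3 dpf (difference −2.72, adjusted p = 0.00922). These 3 genes showed no overlap and remained called without any one array. The gene fosab, which encodes c-Fos, was at 10.90, 10.81 and 9.95 at 5 dpf, against 8.51, 7.67 and 7.77 at 3 dpf, and a second bright probe set of it had a difference of −3.03. The related genes junbb, ier2a and klf2a had differences of −1.62, −2.11 and −1.33, and jun one of −0.80 without a call. The heat shock genes hspa8 and hsp70.3 stood at 0.11 and −0.91, without a call. In place of 12 calls, 6 were made with replicate 2 or replicate 3 at 3 dpf left out, and 7 with replicate 2 at 5 dpf left out.

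Of 48 bright genes of neurons and synapses, 5 were lower and 3 were higher at 5 dpf. As shares these were 10.4% and 6.25%, against 4.03% and 4.48% of all bright genes. The 5 lower ones were tubb5, tmsb, nptna, gap43 and stmn2a. Of these gap43 and stmn2a are markers of growing axons, and tubb5, a tubulin gene, was at 10.62, 10.68 and 10.37 at 5 dpf, against 12.58, 12.11 and 12.52 at 3 dpf (difference 1.85, adjusted p = 0.00622). The 3 higher ones were inaa, an intermediate filament gene of neurons, the synuclein gene sncgb and gad1b, the enzyme that makes the transmitter GABA. The gene inaa was at 11.49, 11.23 and 11.27 at 5 dpf, against 9.98, 9.92 and 9.69 at 3 dpf (difference −1.46, adjusted p = 0.00503). Both tubb5 and inaa were apart on all arrays and remained called without any one of them. With an array left out, 1 to 4 genes of the list were called lower and 1 or 2 higher. The count of 5 lower became 1 for replicate 3 at 3 dpf, 2 for replicate 2 at 3 dpf or replicate 3 at 5 dpf, and 3 for replicate 2 at 5 dpf. The count of 3 higher became 2 for replicate 1 at 3 dpf and 1 for any other array.

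Of 34 bright genes of retinal progenitors and neurogenesis, 5 were lower at 5 dpf and none higher, with a median of 0.33. The share lower was 14.7%, against 4.03% of all bright genes. Of the 30 at 7 or more at both ages 2 were called, insm1b and dcn, whereas 3.37% of all members at 7 or more at both ages were lower. The other 3 calls were of genes that became members through their 3 dpf level. For this reason the 14.7% is not read as an excess of progenitor genes. One of the 5 was dcn, the decorin gene of connective tissue matrix, which also stands on the matrix list and is no progenitor gene. The others were mab21l2 of eye morphogenesis, the transcription factor gene sox11b, the cell cycle inhibitor gene cdkn1ca and insm1b, a factor of newborn neurons. For cdkn1ca the signals were 6.31, 6.67 and 6.63 at 5 dpf, against 8.01, 8.18 and 7.99 at 3 dpf (difference 1.52, adjusted p = 0.00512), and the call remained without any one array. The eye field genes pax6a, pax6b, six3a and rx2 lay between −0.10 and 0.10. The 5 calls became 2 with replicate 1 at 3 dpf left out, 1 with replicate 3 at that age left out, and 3 with replicate 2 at 5 dpf left out.

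DNA replication and mitosis genes lay on one side without many calls. Of 56 bright genes 51 had a positive difference, and the median was 0.67, but 3 were called lower (kif23, birc5a and cdk2) and 1 higher at 5 dpf. The shares called, 5.36% lower and 1.79% higher, compare with 4.03% and 4.48% of all bright genes. Of all 4516 bright probe sets, 184 called and 2357 uncalled ones also had a positive difference. The minichromosome maintenance genes mcm2, mcm3, mcm4 and mcm5, of the replicative helicase, stood at 0.87, 0.71, 0.64 and 0.78, whereas mcm7 stood at −0.08. The cyclin genes ccnb1 and ccna2 had differences of 1.19 and 1.13, without a call. The 1 gene called higher was kif20a, a mitotic kinesin gene, at 12.67, 12.32 and 12.42 at 5 dpf, against 11.04, 9.11 and 9.60 at 3 dpf (difference −2.55, adjusted p = 0.0365). Its second probe set was dim, with a mean of 3.61, and had a difference of 0.16. With replicate 3 at 5 dpf left out, 9 genes were called lower. With replicate 2 at 3 dpf left out 1 was, and with replicate 3 at 3 dpf or replicate 1 at 5 dpf left out none was. The call of kif20a held only with replicate 1 at 3 dpf left out.

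Muller glia genes numbered 15 among the members, of which the prostaglandin synthase gene ptgdsb.2 and the intermediate filament gene vim were higher at 5 dpf, by differences of −1.99 and −1.18. These made up 13.3% of the 15, against 4.48% of all bright genes. The list as a whole was mixed, with 9 negative and 6 positive differences between −1.99 and 1.51 and a median of −0.22. None of the 12 bright pigment genes and none of the 6 bright lens genes was called. Over all bright genes 4.48% were higher and 4.03% lower at 5 dpf. In lists this small the lack of calls does not show that the genes stayed the same. Of the 12 pigment genes 11 had a positive difference, of up to 1.26, and the median of the list was 0.23. The 6 lens genes all had negative differences, of −0.32 to −1.93, and cryaa, which had the largest, averaged 9.14 ± 1.05 at 5 dpf and 7.21 ± 0.44 at 3 dpf (SD, n = 3 each). Its ages did not overlap, but its arrays were spread widely. With an array left out, vim was called in none of the 6 fits and ptgdsb.2 in 1.

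Of 17 bright genes on the list of liver and plasma proteins, 3 were higher at 5 dpf, namely arg2, ambp and the complement factor gene cfi, and 1 of these 3 was at 7 or more at both ages. The share higher was 17.6%, against 4.48% of all bright genes. The plasma protein gene ambp was at 9.45, 8.65 and 9.85 at 5 dpf, against 5.77, 4.82 and 3.80 at 3 dpf (difference −4.52, adjusted p = 0.0132). The mitochondrial arginase gene arg2, which is used in many tissues, was at 10.91, 11.32 and 10.44 at 5 dpf, against 7.77, 3.46 and 4.36 at 3 dpf (difference −5.69, adjusted p = 0.038). All 4 bright digestive enzyme genes of the pancreas had negative differences, of −3.11 to −3.62. Of them ctrl, a chymotrypsin-like enzyme, was called, at 8.34, 9.17 and 9.74 at 5 dpf, against 5.35, 6.29 and 5.35 at 3 dpf (adjusted p = 0.0137). These enzyme genes were under 7 at 3 dpf in every case, so that their brightness came from 5 dpf alone. The linear signals of the 35 measured pancreas and gut genes summed to 3323 to 10815 at 5 dpf, against 462 to 1941 at 3 dpf, and those of the 74 liver genes to 22066 to 40440 at 5 dpf, against 15441 to 23509 at 3 dpf. The part of RNA from these organs was not tested. With replicate 2 at 3 dpf left out, none of the liver genes and 3 of the pancreatic genes were called. With replicate 3 at 3 dpf left out the counts were 1 and 0. With replicate 2 or replicate 3 at 5 dpf left out, 1 liver gene was called.

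The remaining lists are given as counts with their shares. Over all bright genes 4.48% were higher and 4.03% lower at 5 dpf. Of 48 bright genes of hypoxia, insulin-like growth factors and carbohydrate metabolism, 1 was higher and 1 lower at 5 dpf, or 2.08% each. Of 16 bright blood cell genes and 29 bright genes of cholesterol and fatty acid metabolism, 1 each was lower and none higher. The shares lower were 6.25% and 3.45%. Neither the blood cell call nor the cholesterol and fatty acid call was of a gene at 7 or more at both ages. With so few calls, these counts are a description only.

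Several large differences fell outside these lists. The largest of a gene at 7 or more at both ages was that of the unnamed si:dkey-7c18.24 (difference −4.57, adjusted p = 0.0337). It was at 12.95, 12.47 and 12.13 at 5 dpf, against 8.98, 8.91 and 5.95 at 3 dpf. It was called in only 1 of the 6 fits with an array left out. The gene iscub, a scaffold of iron-sulfur cluster assembly, was at 10.61, 10.33 and 10.98 at 5 dpf, against 8.23, 8.45 and 7.73 at 3 dpf (difference −2.50, adjusted p = 0.00794). The kinase gene mknk2b, whose human counterpart phosphorylates the initiation factor eIF4E, was at 10.71, 10.98 and 11.33 at 5 dpf, against 8.63, 8.17 and 9.02 at 3 dpf (difference −2.40, adjusted p = 0.00966). The ubiquitin ligase gene mylipa was at 10.68, 10.54 and 10.49 at 5 dpf, against 8.70, 8.09 and 8.09 at 3 dpf (difference −2.28, adjusted p = 0.00569). These 3 genes, as well as nptx1l, a neuronal pentraxin-like gene, and the unnamed si:ch211-237l4.6, remained called without any one array. The calcium-binding protein gene cabp5b, whose counterpart marks bipolar cells in mammals, was higher by a difference of −2.59, and scg2a, a secretogranin gene of neuroendocrine vesicles, by one of −2.65. Both lost their call when replicate 2 or replicate 3 at 3 dpf was left out. The gene called on the list of cholesterol and fatty acid metabolism was hsd17b8, whose product takes part in fatty acid synthesis in mitochondria. It was at 5.59, 5.84 and 5.44 at 5 dpf, against 10.56, 10.21 and 11.11 at 3 dpf (difference 5.00, adjusted p = 0.00216). Its second probe set, with a mean of 6.47, had a difference of −0.26 and was not called. Outside the lists, the proteoglycan gene aspn (asporin) was at 5.55, 5.73 and 6.03 at 5 dpf, against 8.83, 9.19 and 9.14 at 3 dpf (difference 3.29, adjusted p = 0.00214), and its second probe set, with a mean of 2.70, had a difference of −0.03. Both hsd17b8 and aspn were under 7 at 5 dpf and became members through their 3 dpf level.

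In genes with several bright probe sets, the differences of these could be set side by side. There were 307 such genes with 652 probe sets, and the median spread of their differences was 0.179. All probe sets were called in 18 genes, some in 25 and none in 264, and in no gene were probe sets called in opposite directions. Most of these genes had no call, so that the median spread and the lack of opposite calls are a description only. The widest spread, 1.96, was that of pde6ha, the inhibitory subunit of cone phosphodiesterase. One of its probe sets was at 15.19, 15.43 and 15.49 at 5 dpf, against 13.28, 11.95 and 12.26 at 3 dpf (difference −2.87, adjusted p = 0.0125). The other was at 14.46, 14.69 and 14.51 at 5 dpf, against 13.92, 13.37 and 13.63 at 3 dpf (difference −0.91, adjusted p = 0.0256), which is under 2-fold. Both moved the same way and by different amounts. In hnrnpa0a, an RNA-binding protein gene, the 3 probe sets had differences of −0.12, 1.44 and 1.65. The next widest spreads were those of anxa4, hnrnpa0b and pank2, with 1.64, 1.58 and 1.12, and 6 genes in all had a spread of at least 1. Of the 46 genes chosen for the largest called differences, 14 had another probe set of any brightness. Of those 21 probe sets 14 were called, whereas 5.36% of all probe sets tested were. The 46 were chosen on these same arrays, so that this count too is a description only.

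The arrays at 4 dpf were not used to choose the members. The study's methods describe only the 3 and 5 dpf arrays. Any difference in how the 4 dpf arrays were handled cannot be told apart from age. Of the 205 members called higher at 5 dpf, 195 had a 4 dpf mean between the other ages, and so did 176 of the 184 called lower. The median share of the way to the 5 dpf level reached at 4 dpf was 0.67 and 0.60 for these groups. The level of acta1a was 9.54 at 3 dpf, 5.87 at 4 dpf and 5.41 at 5 dpf. The level of matn1 was 12.89 at 3 dpf, 6.86 at 4 dpf and 4.53 at 5 dpf. The level of cry2 was 6.93 at 3 dpf, 8.66 at 4 dpf and 10.15 at 5 dpf. By list, the median share was 1.01 for the 8 called muscle genes, 0.84 for the 6 of phototransduction, 0.78 for the 20 of matrix, 0.66 for the 20 of the endoplasmic reticulum, 0.56 for the 7 clock genes and 0.47 for the 14 of translation and RNA binding. The shares use the same 5 and 3 dpf arrays as the calls, and no difference between lists was tested.

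**Figure D4:**
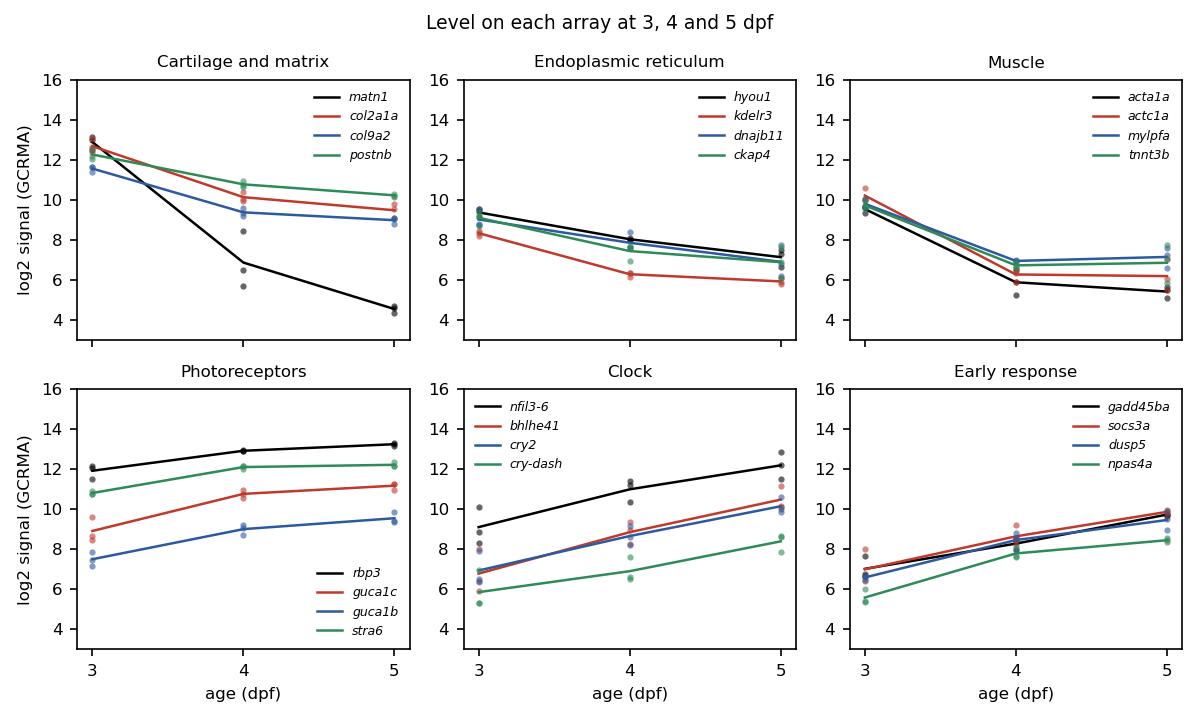
Log2 signal on each array (points) and mean (lines) at 3, 4 and 5 dpf for 4 named genes of 6 groups. The muscle genes were near their 5 dpf level by 4 dpf, whereas the clock genes stood between the other ages at 4 dpf.

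How many members were called depended on single arrays. The count was 389 with all 6 arrays, and with replicate 1, 2 or 3 left out it was 367, 258 and 324 for the 5 dpf arrays and 340, 173 and 120 for the 3 dpf arrays. With replicate 3 at 3 dpf left out 56 were called higher and 64 lower, and with replicate 1 at 3 dpf left out 192 and 148. A total of 109 members, or 28.0% of the 389, remained called in all 6 fits, 52 of them higher and 57 lower at 5 dpf. None of the 389 changed sign, which cannot happen where the ages do not overlap and so adds no support. Those that remained included matn1, col2a1a, col9a2, acta1a, kdelr3, psma6a and tubb5 on the lower side and krt97, npas4a, dusp5, gadd45ba, stra6 and inaa on the higher side. Of these genes, matn1, acta1a and kdelr3 became members through their 3 dpf level, and npas4a and dusp5 through their 5 dpf level. No clock gene remained called in all 6 fits.

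**Figure D5:**
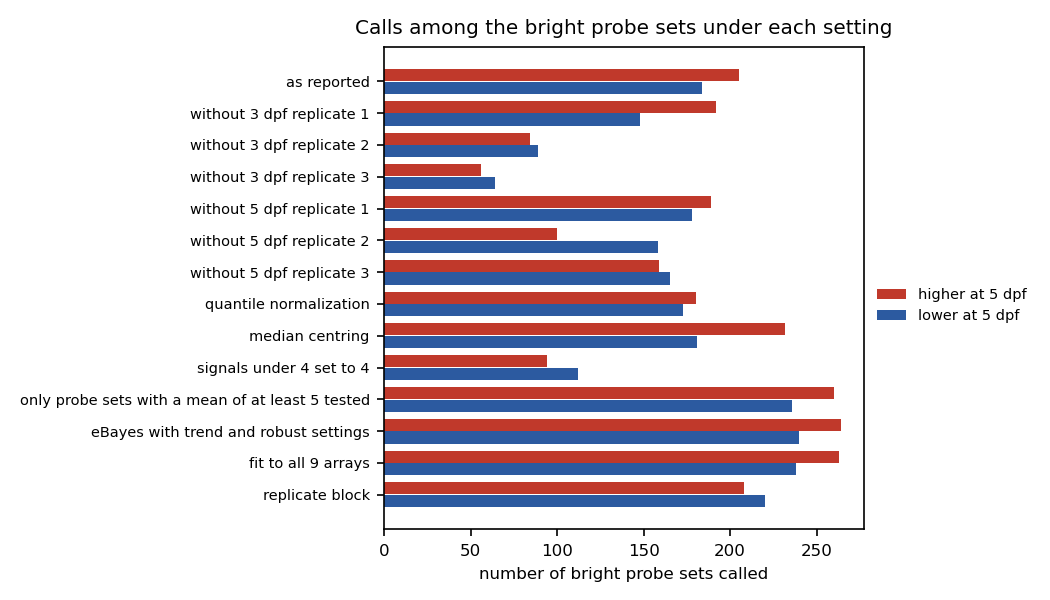
Number of bright probe sets called higher and lower at 5 dpf with all arrays, with each array left out and under 7 other settings of the fit. The counts are lowest without 3 dpf replicate 3, at 56 higher and 64 lower, against 205 and 184 as reported.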

How the data were processed

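The signals are the log2 values that the authors deposited for 9 arrays, computed with GCRMA in a version that the sources do not name. It is unknown if the 4 dpf arrays were normalized with the others. No further normalization was applied, and 115 control probe sets were left out. Gene symbols came from the platform annotation, updated through Entrez identifiers (4490 of 4516 members matched). Differences between 5 and 3 dpf eyes were tested with limma 3.58.1 in R 4.3.3 (lmFit and eBayes on 6 arrays), and p-values were adjusted by Benjamini-Hochberg over 15502 probe sets. The limits, an adjusted p under 0.05 and a fold of at least 2, are those of the study's methods. Where p-values come from arrays whose separate origin only the methods state, they measure the spread between these arrays. The number of arrays, 3 per age, limits the precision. A gene was measured by its brightest probe set.

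The members and the 24 gene lists were chosen with earlier results of these data known. A set of genes was chosen for naming by rule. It held the 15 called genes with the largest difference in each direction that were at 7 or more at both ages, the 8 in each direction under 7 at one age, up to 4 called genes per list (or its 2 brightest), the 8 brightest members, the 5 members on each side of the limit and the 5 genes with the most divided probe sets. The text describes only part of this set, and that part was picked with the values known. Other genes named with a difference only were taken from the lists after their values were seen. On simulated data for 5 and 3 dpf eyes with 15502 probe sets, 74 of 100 changes of 1.5 and 90 of 100 changes of 3 on the log2 scale were found, and 3 of 15302 unchanged probe sets were called. The simulated noise was independent between probe sets, so that false calls from deviations shared across an array were not covered. The alternatives tried are given in the closing section. Sequences of the probes were not used here.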

Additional observations from a re-analysis of the deposited data

How the results depend on the processing

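With 1 array left out the count of bright probe sets called lay between 120 and 367, against 389 with all arrays. Those higher at 5 dpf lay between 56 and 192, and those lower at 5 dpf between 64 and 178. With signals under 4 set to 4 the count fell to 206, with 94 higher and 112 lower at 5 dpf, all of them among the 389. That step left the difference of 4514 members the same and moved 2. It lowered the prior degrees of freedom, by which limma shares the spread among probe sets, to 0.354, against 1.42 as deposited, and so the calls of bright genes moved with the treatment of dim ones. A test limited to probe sets averaging 5 or more gave 496 and eBayes with trend and robust settings 504, with prior degrees of freedom of 3.42 and 3.43, and both kept all 389. Without the fold limit 869 were called, 366 higher and 503 lower at 5 dpf. Quantile normalization (353), median centring (413) and a fit to all 9 arrays (501) stayed within 1.5 times the count. So did 1 probe set per gene (355), brightness limits of 6 (488) and 8 (281), a limit of 7 at both ages (298) and members with any number of symbols (390).

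The replicate number as a block gave 428 calls, 208 higher and 220 lower at 5 dpf. After group means were removed, same-numbered arrays of 5 and 3 dpf correlated at 0.62, 0.095 and 0.157, and replicates 2 and 3 of each age correlated best with the other number, so that the numbers were not taken as pairs. Of the probe sets chosen for naming that were called, none changed direction under any of these fits. The call of 36 was lost with the floor of 4, of 9 with quantile normalization, of 5 with the block, of 2 with median centring and of 18 to 51 with an array left out.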

Other observations

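Some of the calls that remained without any one array lay on none of the gene lists, and the genes named here were chosen after their values were seen. The antiproliferative gene tob1b had 2 bright probe sets, with differences of −2.38 and −2.05 (adjusted p = 0.0115 and 0.00707). The autophagy genes ulk1b, a kinase that starts the process, and nbr1b, a cargo receptor, were higher at 5 dpf by differences of −1.24 and −1.18 (adjusted p = 0.00663 and 0.00927). The transcription factor genes etv5b and etv5a, which answer to fibroblast growth factor in zebrafish, had differences of −1.33 and −1.23 (adjusted p = 0.00509 and 0.00788). Of genes lower at 5 dpf, odc1, the first enzyme of polyamine synthesis, was at 7.24, 6.63 and 6.81 at 5 dpf, against 8.86, 8.58 and 8.47 at 3 dpf (difference 1.75, adjusted p = 0.00966). The gene papss2b, whose product makes the sulfate donor used for cartilage proteoglycans, was at 6.71, 6.46 and 6.42 at 5 dpf, against 8.34, 8.92 and 8.46 at 3 dpf (difference 2.04, adjusted p = 0.00627). The ages did not overlap in either gene, and both were under 7 at 5 dpf and became members through their 3 dpf level.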
